A study of Homo sapiens with 4 samples.

Results

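The ATF4 amino acid response and the cytosolic aminoacyl-tRNA synthetases are described here in fibroblasts that carry an activated RAS oncogene. The members were listed by name as 41 genes, of which 20 encode synthetases and 21 are ATF4 and amino acid genes linked to it. The table of 12033 genes held 40 of them, since VARS had no row under that symbol. A mean of at least 2 RPKM (reads per kilobase of transcript, scaled to sequencing depth) over the libraries was required for a comparison, and 39 members passed. VLDLR, a lipoprotein receptor, did not pass, at 1.2, 1.0, 1.8 and 1.1 RPKM.

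RNA was sequenced from BJ cells, human fibroblasts immortalized with hTERT, in which RASG12V was induced with 4-OHT for 14 days. Each of 4 conditions was represented by 1 library of transduced cells, and all 4 carried the induced RASG12V. The sgRNA-NT library received a control guide without a target, sgRNA-AP1-69 and sgRNA-AP1-71 received different guides to the enhancer Enh AP1-OIS1, and sgRNA-FOXF1 received a guide to the FOXF1 gene. The study asked how expression in cells with guides to the enhancer or FOXF1 differs from that in control cells under oncogenic stress. For both enhancer guides the paper reports small insertions and deletions in the AP1 binding motif, and not loss of the whole enhancer. Values are given throughout in the order sgRNA-NT, sgRNA-AP1-69, sgRNA-AP1-71, sgRNA-FOXF1. Ratios to sgRNA-NT keep that order. No library was made without RAS induction, so every difference is between cells that express the oncogene. In a pool of cells, fewer cells with a transcript and less of it per cell cannot be told apart.

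ATF4 is a transcription factor whose protein is made when the initiation factor eIF2 is phosphorylated, as happens when amino acids run short or unfolded proteins accumulate in the endoplasmic reticulum. It pairs with C/EBP proteins on a composite DNA element and induces genes for amino acid import, amino acid synthesis, tRNA charging and stress feedback. Since ATF4 is controlled largely through translation, its RNA level need not follow its protein. The aminoacyl-tRNA synthetases attach each amino acid to its tRNA, and many of the cytosolic ones are among the genes that ATF4 induces.

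The core of the composite element was sought because it is what many members share in sequence. The members were listed by name and not by this search. Known ATF4 targets can owe that name in part to this element, so the shares below describe the lists and test nothing. The letters TGATGNAA were searched on both strands of RefSeq promoters of GRCh38.p14, from 250 bases before to 50 bases after each start, and no other motif was searched. The windows below are shown for the synthetases and for CHAC1 and SLC3A2, members with large differences, and for ASNS, a much studied ATF4 target. Capitals mark the core, each window reads 5′ to 3′ on the strand of the core, and positions are on GRCh38.p14.
NARS, chr18:57621804-57621833: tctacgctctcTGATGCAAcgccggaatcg
IARS, chr9:92293692-92293721: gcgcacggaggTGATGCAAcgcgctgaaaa
CARS, chr11:3057407-3057436: ttcctagaatcTGATGCAAccgccgccccg
MARS, chr12:57488053-57488082: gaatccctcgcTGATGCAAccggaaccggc
TARS, chr5:33440956-33440985: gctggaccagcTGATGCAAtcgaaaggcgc
AARS, chr16:70289675-70289704: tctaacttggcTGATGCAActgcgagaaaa
GARS, chr7:30594834-30594863: ggctcggagcaTGATGAAAtcgccgcgtaa
ASNS, chr7:97872458-97872487: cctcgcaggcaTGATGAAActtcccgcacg
CHAC1, chr15:40953251-40953280: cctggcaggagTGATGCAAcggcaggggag
SLC3A2, chr11:62881725-62881748: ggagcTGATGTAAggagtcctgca

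The core was present in 13 of 34 members with a RefSeq promoter (38.2%), against 157 of 6258 genes compared (2.51%) and 1217 of 27305 genes with a promoter (4.46%). Among the synthetases it was found in 7 of 16 (43.8%), and among the other members in 6 of 18 (33.3%). All 7 of these synthetases belong to a list of 11 known to be induced through ATF4, of which 10 had a promoter (70.0%), whereas 0 of 6 synthetases outside that list held the letters. The remaining members with a core were SLC7A1, SLC1A5 and CEBPG. The central letter was C in 9 of 13 cores, A in 3 and T in 1, and 8 cores lay on the strand opposite to the gene. The core began between 13 bases before and 15 bases after the start in CARS, IARS, MARS, NARS, TARS and SLC7A1, and 187 and 209 bases before it in AARS and CHAC1. DARS, LARS, YARS, PSPH, SHMT2 and SLC7A11 had no promoter entry. A match is a string of letters in a window and does not show binding in these cells.

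The upstream sequence of CHAC1, the member with a core that differed most among those with such a promoter, is shown whole for the 250 bases before its start (chr15:40953221-40953470, plus strand, GRCh38.p14), with the core in capitals as it reads on the gene's strand.
CHAC1: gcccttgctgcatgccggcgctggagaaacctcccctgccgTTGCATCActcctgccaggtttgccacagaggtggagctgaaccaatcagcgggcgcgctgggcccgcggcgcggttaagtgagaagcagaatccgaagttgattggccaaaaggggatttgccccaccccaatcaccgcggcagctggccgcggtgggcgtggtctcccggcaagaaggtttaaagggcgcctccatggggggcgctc

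Before the members' values, a few facts of the whole table bear on them. FOXF1 RNA was at 29.6, 11.1, 7.8 and 25.0 RPKM, so it was lower with both enhancer guides. In the sgRNA-FOXF1 library FOXF1 RNA lay within 1.5-fold of the control and does not check that label. For the guide to FOXF1 the paper reports effective knockout by western blot, which measures protein. HRAS, the family member whose induced form the cells carry, was at 829.4, 446.4, 427.4 and 707.6 RPKM. Transcripts of the mitochondrial genome had median log2 ratios to sgRNA-NT of -1.02, -1.54 and -0.77 over 13 genes. Fibroblast markers summed to between 3554.4 RPKM in sgRNA-NT and 5368.7 in sgRNA-AP1-71, with 10 of 10 in the table and 8 above the floor in every library, while DCN and FAP were at the floor of 1 RPKM in sgRNA-NT. The epithelial markers EPCAM and CDH1 had no row, KRT8 and KRT18 summed to between 80.5 and 144.1 RPKM, and no haematopoietic or endothelial marker sought was in the table. The part of these differences in the results below was not tested.

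As a group the members were not shifted in a single direction. Over 39 members the median log2 ratio to sgRNA-NT was -0.02 for the guide sgRNA-AP1-69, 0.02 for its partner sgRNA-AP1-71 and -0.06 for sgRNA-FOXF1, beside 0.07, 0.08 and 0.05 over all 7596 genes compared. With sgRNA-AP1-69, 1 member was at least 1.5-fold higher (2.56%, beside 8.18% of all genes) and 4 were lower (10.3%, beside 9.93%). With sgRNA-AP1-71 the counts were 4 higher (10.3%, beside 14.0%) and 6 lower (15.4%, beside 14.7%). With sgRNA-FOXF1 they were 1 higher (2.56%, beside 11.6%) and 9 lower (23.1%, beside 13.2%). The shares of lower members with the enhancer guides were therefore close to the background, and the share of higher members was below it in each library. All 3 comparisons share the sgRNA-NT library, so a value that is extreme there enters each of them.

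**Figure D1:**
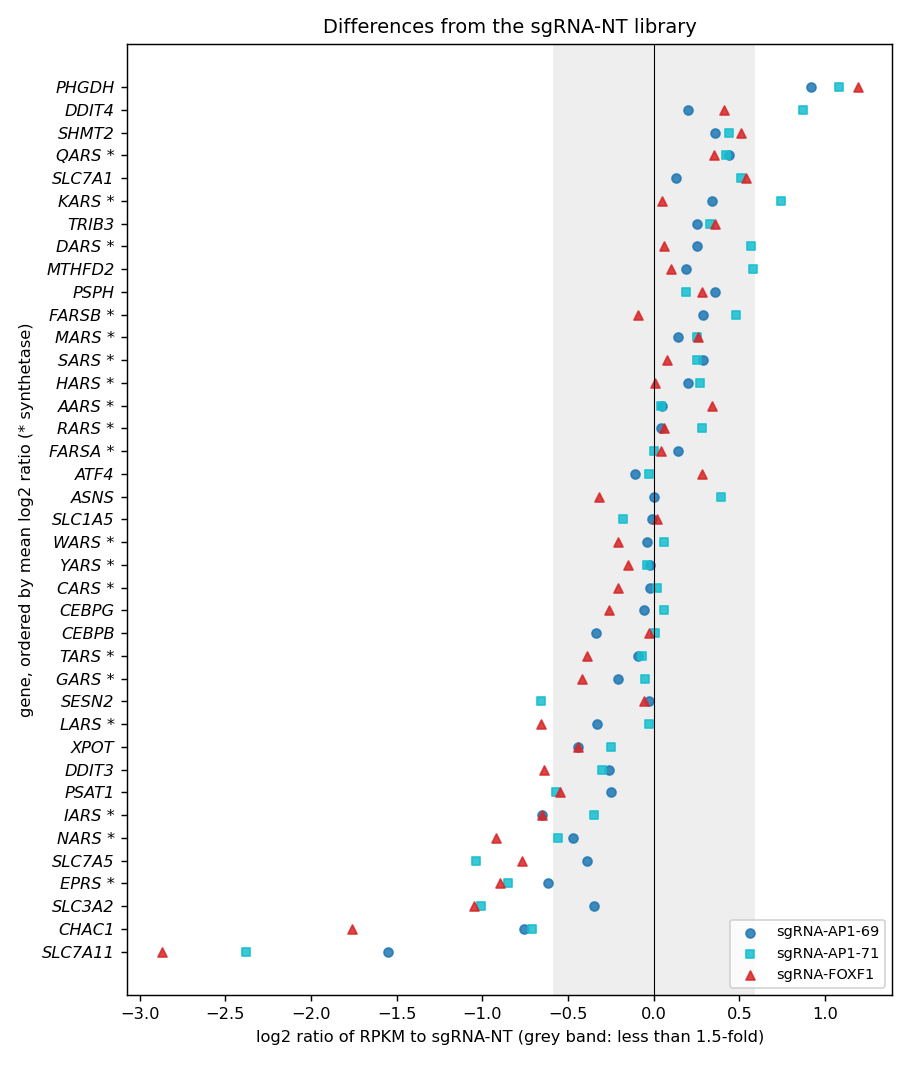
Log2 ratio of RPKM to sgRNA-NT for the 39 members compared, 1 point per targeted library, ordered by the mean of the 3 ratios. The grey band covers differences of less than 1.5-fold and an asterisk marks a synthetase. SLC7A11 and CHAC1 lie lowest, PHGDH lies highest, and most synthetases lie inside the band.

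The largest difference was in a transporter. SLC7A11 encodes the light chain of the cystine-glutamate exchanger and lies at chr4:139085251-139163503 on hg19. Its level was 7.3 RPKM in sgRNA-NT, 2.5 in sgRNA-AP1-69, 1.4 in sgRNA-AP1-71 and at the floor of 1.0 in sgRNA-FOXF1. Its mean reached the filter of 2 RPKM only through the sgRNA-NT value, and it did not reach the stricter mean of 5 RPKM. A gene admitted in this way can only appear lower in the targeted libraries, so its place as the largest difference is description. All 3 targeted libraries lay below the control, by 2.92-fold, 5.21-fold and at least 7.3-fold. The mean log2 ratio of the enhancer guides was -1.96 ± 0.59 (SD, n = 2 guides), so the guides differed from each other by 1.79-fold. An antisense transcript, SLC7A11-AS1, overlaps an exon of this gene over 691 bases, and its reads are kept apart only if the libraries recorded strand.

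SLC3A2 encodes the heavy chain that joins SLC7A11 or SLC7A5 at the cell surface. It was at 35.6, 27.9, 17.7 and 17.2 RPKM. SLC7A5, the light chain of the large neutral amino acid transporter LAT1, was at 30.2, 23.0, 14.7 and 17.7 RPKM. Both partners of LAT1 were thus highest in sgRNA-NT, next in sgRNA-AP1-69, and lowest in the remaining libraries. With sgRNA-AP1-71, SLC3A2 was 2.01-fold and SLC7A5 2.05-fold lower than with sgRNA-NT, and with sgRNA-FOXF1 they were 2.07-fold and 1.71-fold lower. The enhancer guides did not give the same size, since their mean log2 ratios were -0.68 ± 0.46 for SLC3A2 and -0.72 ± 0.46 for SLC7A5 (SD, n = 2 guides). SLC7A5 has the pseudogene copies SLC7A5P1 and SLC7A5P2, with which it may share reads.

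The remaining transporters did not follow. SLC7A1, an importer of cationic amino acids such as arginine, was at 18.8, 20.6, 26.7 and 27.4 RPKM, lowest in the control. SLC1A5, the glutamine carrier ASCT2, was at 86.6, 86.3, 76.5 and 88.0 RPKM, and no library differed from the control by 1.5-fold. Over the 5 transporters the median log2 ratios were -0.35, -1.01 and -0.77, with 1, 3 and 3 of the 5 at least 1.5-fold lower, beside 9.93%, 14.7% and 13.2% of all genes. None was that much higher in a targeted library, beside 8.18%, 14.0% and 11.6%.

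**Figure D2:**
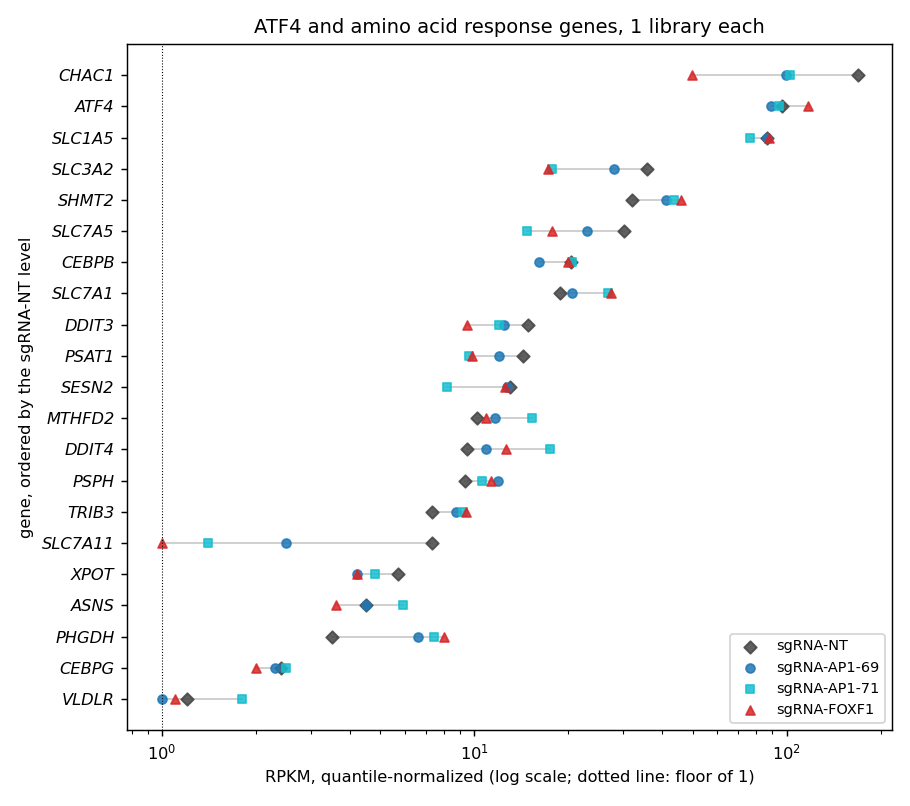
RPKM of the ATF4 and amino acid genes on a log axis, 1 symbol per library and no error bars since each condition is 1 library, ordered by the sgRNA-NT level. The dotted line marks the floor of 1 RPKM. SLC7A11 spans the widest range, from 7.3 RPKM in sgRNA-NT to the floor in sgRNA-FOXF1, CHAC1 is highest in sgRNA-NT, and PHGDH is lowest in it.

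Among the stress feedback genes CHAC1 stood out. It encodes an enzyme that degrades glutathione, lies at chr15:41245160-41248710 on hg19, and ranked at the 97.0 percentile of level among the genes compared in sgRNA-NT. Its level was 168.7 RPKM in sgRNA-NT, 99.6 in sgRNA-AP1-69, 102.8 in sgRNA-AP1-71 and 49.7 in sgRNA-FOXF1. The enhancer guides lay close together at 1.69-fold and 1.64-fold below the control (mean log2 ratio -0.74 ± 0.03, SD, n = 2 guides), and sgRNA-FOXF1 lay 3.39-fold below it. Between sgRNA-FOXF1 and the mean of the enhancer guides the log2 difference was -1.03.

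The other feedback genes showed no common order of libraries. TRIB3, a pseudokinase that restrains ATF4 and CHOP, was at 7.3, 8.7, 9.2 and 9.4 RPKM. SESN2, a leucine sensor upstream of the kinase mTORC1, was at 13.0, 12.7, 8.2 and 12.5 RPKM, and DDIT4, an inhibitor of the same kinase also called REDD1, was at 9.5, 10.9, 17.4 and 12.6 RPKM. Only in sgRNA-AP1-71 did either of the last pair pass 1.5-fold, SESN2 1.59-fold lower and DDIT4 1.83-fold higher.

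Between the guides to the same enhancer, 1 member was at least 1.5-fold higher with sgRNA-AP1-71 than with sgRNA-AP1-69 (DDIT4), beside 2.41% of all genes. In the other direction 4 members were lower (10.3%, beside 2.84% of all genes), namely SLC7A11, SLC3A2, SLC7A5 and SESN2. The scatter between libraries aimed at the same site is therefore large for these genes, and none of the synthetases passed 1.5-fold between the guides.

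Of the 6 enzymes of serine, glycine, asparagine and one-carbon metabolism, 4, 5 and 4 lay above the control in the targeted libraries. Of all 7596 genes, 4179, 4189 and 4098 did so. PHGDH, which starts serine synthesis from a glycolytic intermediate and lies at chr1:120191034-120286841 on hg19, was at 3.5 RPKM in sgRNA-NT, 6.6 in sgRNA-AP1-69, 7.4 in sgRNA-AP1-71 and 8.0 in sgRNA-FOXF1. Every targeted library exceeded the control, by 1.89-fold, 2.11-fold and 2.29-fold (mean log2 ratio of the enhancer guides 1.0 ± 0.12, SD, n = 2 guides). PSAT1, which carries out the next step, was at 14.3, 12.0, 9.6 and 9.8 RPKM, highest in the control and opposite in direction to PHGDH. PSPH, which completes the pathway, was at 9.3, 11.9, 10.6 and 11.3 RPKM, and it has a copy in the table, PSPHP1, with which it may share reads.

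SHMT2, the mitochondrial enzyme that turns serine into glycine, was at 32.0, 41.2, 43.4 and 45.7 RPKM (mean log2 ratio of the enhancer guides 0.40 ± 0.05, SD, n = 2 guides). MTHFD2, the next mitochondrial enzyme of one-carbon metabolism, was at 10.2, 11.6, 15.3 and 10.9 RPKM, which is exactly 1.5-fold higher in sgRNA-AP1-71. ASNS, asparagine synthetase, was at 4.5, 4.5, 5.9 and 3.6 RPKM, above the control in sgRNA-AP1-71 and below it in sgRNA-FOXF1. The medians of the 6 enzymes were 0.27, 0.42 and 0.19 on the log2 scale, beside 0.07, 0.08 and 0.05 over all genes. With each guide 0 enzymes were at least 1.5-fold lower, beside 9.93%, 14.7% and 13.2% of all genes. At least 1.5-fold higher were 1, 2 and 1 (16.7%, 33.3% and 16.7%, beside 8.18%, 14.0% and 11.6%).

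Without a correction for length, the transcription factors stayed within 1.5-fold of the control, except DDIT3 in sgRNA-FOXF1. ATF4 RNA was at 96.4, 89.2, 94.2 and 116.9 RPKM, highest in sgRNA-FOXF1 and within 1.5-fold of the control in each library. CEBPB was at 20.4, 16.1, 20.5 and 20.0 RPKM, and CEBPG, which forms dimers with ATF4, was at 2.4, 2.3, 2.5 and 2.0 RPKM. Both are partners of ATF4 on the composite element, and neither passed 1.5-fold. DDIT3, which encodes CHOP, was at 14.8, 12.4, 12.0 and 9.5 RPKM, highest in the control. Only its 1.56-fold lower level in sgRNA-FOXF1 passed 1.5-fold, whereas after the length correction described below it passed in each targeted library. Exons of DDIT3 and MARS overlap on opposite strands over 287 bases, so their reads are kept apart only if strand was recorded. XPOT, the exporter of tRNA from the nucleus, was at 5.7, 4.2, 4.8 and 4.2 RPKM, highest in the control.

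The synthetases showed smaller differences than the transporters. Their median log2 ratios over 19 genes were 0.04, 0.04 and -0.09, beside 0.07, 0.08 and 0.05 over all genes. In the same order of libraries, 2, 1 and 4 synthetases were at least 1.5-fold lower (10.5%, 5.26% and 21.1%, beside 9.93%, 14.7% and 13.2% of all genes), and 0, 1 and 0 were higher (0.0%, 5.26% and 0.0%, beside 8.18%, 14.0% and 11.6%). Only the lower count with sgRNA-FOXF1 exceeded the background by more than 1 percentage point.

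**Figure D3:**
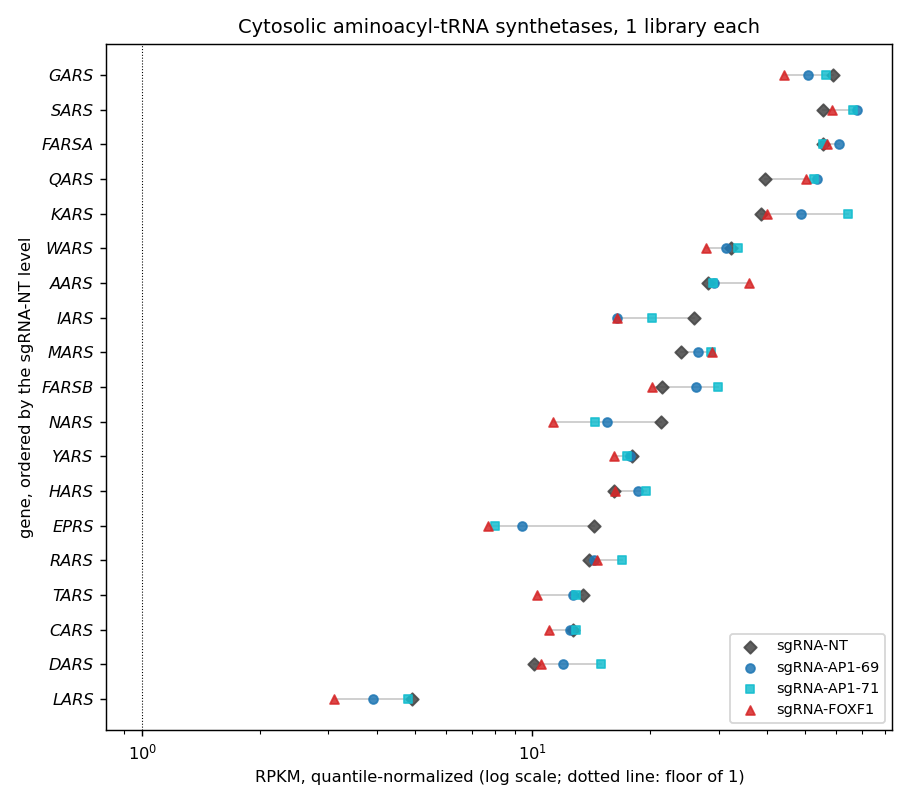
RPKM of the 19 cytosolic synthetases on a log axis, 1 symbol per library and no error bars since each condition is 1 library, ordered by the sgRNA-NT level from GARS (58.8 RPKM) to LARS (4.9 RPKM). EPRS, NARS and IARS are highest in sgRNA-NT, QARS is lowest in it, and for most of the others the 4 symbols lie close together.

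EPRS was the synthetase with the largest mean difference over the targeted libraries. It charges both glutamate and proline tRNAs, lies at chr1:220141942-220219872 on hg19, and was at 14.4 RPKM in sgRNA-NT, 9.4 in sgRNA-AP1-69, 8.0 in sgRNA-AP1-71 and 7.7 in sgRNA-FOXF1. All 3 targeted libraries lay below the control, by 1.53-fold, 1.80-fold and 1.87-fold (mean log2 ratio of the enhancer guides -0.73 ± 0.16, SD, n = 2 guides). NARS, the asparagine enzyme, was at 21.4, 15.5, 14.5 and 11.3 RPKM. It was 1.89-fold lower in sgRNA-FOXF1, and with the enhancer guides it stayed inside the limit at 1.38-fold and 1.48-fold. IARS, the isoleucine enzyme, was at 25.9, 16.5, 20.3 and 16.5 RPKM, 1.57-fold lower in sgRNA-AP1-69 and in sgRNA-FOXF1 but 1.28-fold lower in sgRNA-AP1-71. LARS, the leucine enzyme, was at 4.9, 3.9, 4.8 and 3.1 RPKM, and passed 1.5-fold only in sgRNA-FOXF1.

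KARS, the lysine enzyme, was at 38.6, 48.8, 64.3 and 40.0 RPKM and was the only synthetase at least 1.5-fold higher in any library without a correction for length, at 1.67-fold in sgRNA-AP1-71. Its exons overlap TERF2IP on the opposite strand over 176 bases. QARS, the glutamine enzyme, was at 39.5, 53.6, 52.7 and 50.4 RPKM, below every targeted library in the control but inside 1.5-fold (mean log2 ratio of the enhancer guides 0.43 ± 0.02, SD, n = 2 guides). The aspartate enzyme DARS was at 10.1, 12.0, 15.0 and 10.5 RPKM, highest in sgRNA-AP1-71. SARS, the serine enzyme, was at 55.6, 67.8, 66.2 and 58.6 RPKM, which is highest with the enhancer guides.

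The phenylalanine enzyme is built from subunits encoded by FARSA and FARSB. FARSA was at 55.5, 61.1, 55.5 and 56.9 RPKM, and FARSB at 21.5, 26.2, 29.9 and 20.2 RPKM. The subunit RNAs did not keep a fixed ratio, since FARSB was highest in sgRNA-AP1-71, where FARSA equalled the control.

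Several further enzymes stayed near the control in both enhancer-guide libraries and were lower in sgRNA-FOXF1, none by 1.5-fold. GARS, for glycine, was at 58.8, 50.9, 56.7 and 44.1 RPKM. TARS, for threonine, was at 13.5, 12.7, 12.9 and 10.3 RPKM, and WARS, for tryptophan, at 32.3, 31.4, 33.7 and 27.9 RPKM. The cysteine and tyrosine enzymes were lowest in sgRNA-FOXF1 too, CARS at 12.7, 12.5, 12.9 and 11.0 RPKM and YARS at 18.0, 17.8, 17.5 and 16.2 RPKM. AARS, for alanine, went the other way, at 28.2, 29.2, 29.0 and 35.8 RPKM. MARS, RARS and HARS, for methionine, arginine and histidine, stayed within log2 ratios of 0.01 to 0.28, and exons of HARS overlap WDR55 on the opposite strand over 1090 bases.

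Compared with the mean of the enhancer guides, sgRNA-FOXF1 gave lower levels for 17 of 19 synthetases, beside 4030 of 7596 genes, with a median log2 difference of -0.21 beside -0.03 over all genes. None of these 17 differed by 1.5-fold. Among all members 2 were at least 1.5-fold lower in this comparison (5.13%, beside 3.54% of all genes), CHAC1 and SLC7A11, and 0 were higher (beside 5.86%).

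Grouping the synthetases gave small contrasts. The 8 that belong to the multisynthetase complex had medians of 0.09, 0.27 and 0.05 on the log2 scale, and the 11 outside it had -0.02, 0.02 and -0.15. The complex held both directions. EPRS, IARS and LARS had ratios below 0 in each targeted library, while QARS, KARS, DARS, MARS and RARS had ratios above 0 in each. The scaffold genes AIMP1, AIMP2 and EEF1E1 had medians of 0.29, 0.26 and 0.32. Class I synthetases (8 genes, EPRS counted apart) had medians of -0.02, 0.04 and -0.18, and the 10 of class II had 0.17, 0.15 and 0.02. The 11 known to be induced through ATF4 had medians of -0.04, -0.04 and -0.21, and the 8 outside that list had 0.22, 0.35 and 0.04. Of the first list 18.2%, 9.09% and 27.3% were at least 1.5-fold lower, and of the second 0.0%, 0.0% and 12.5%, beside 9.93%, 14.7% and 13.2% of all genes. Members with TGATGNAA (13 genes) had medians of -0.06, -0.05 and -0.32, and the 20 compared members with a promoter but without these letters had 0.09, 0.16 and 0.02. These contrasts are smaller than the difference between single genes within each group and were not tested.

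Other genes of the pathway were described by the same counts. A list of eIF2α kinases, phosphatase subunits and eIF2α itself, which bear on ATF4 translation, had medians of -0.21, -0.27 and -0.39 over 6 of 8 genes. The kinase gene EIF2AK3 and GCN1 were on the list but not among those compared. At least 1.5-fold lower were 1, 1 and 2 of the 6 (16.7%, 16.7% and 33.3%, beside 9.93%, 14.7% and 13.2% of all genes) and none was higher. The lower genes were EIF2AK2, the kinase PKR that senses double-stranded RNA, at 3.4, 2.0, 2.0 and 1.5 RPKM, and in sgRNA-FOXF1 also PPP1R15B, a phosphatase subunit, at 5.9, 4.7, 4.7 and 3.8 RPKM. Both were named after their values were seen. The mean of EIF2AK2 reached the filter of 2 RPKM only through its sgRNA-NT value. A gene admitted in this way can only appear lower, so its place in these counts is description. EIF2AK4, the kinase GCN2 that senses uncharged tRNA, was at 13.1, 13.6, 14.0 and 9.3 RPKM, and PPP1R15A, the phosphatase subunit GADD34, was at 43.6, 37.2, 31.8 and 38.8 RPKM. Further ATF4 targets had medians of 0.21, 0.23 and 0.13 over 12 of 20 genes. Of these, 1, 2 and 3 were at least 1.5-fold lower (8.33%, 16.7% and 25.0%, beside 9.93%, 14.7% and 13.2% of all genes) and 1, 3 and 2 were higher (8.33%, 25.0% and 16.7%, beside 8.18%, 14.0% and 11.6%). SLC38A2, the sodium-coupled neutral amino acid transporter SNAT2, was at 32.5, 16.2, 9.7 and 13.6 RPKM, so that every targeted library lay more than 1.5-fold below the control. GDF15, a secreted stress hormone, was at 36.7, 25.8, 17.3 and 23.6 RPKM, and STC2, a secreted glycoprotein, was at 99.7, 71.9, 82.6 and 42.1 RPKM. Both were highest in sgRNA-NT. PCK2, the mitochondrial enzyme that makes phosphoenolpyruvate, was at 4.6, 7.0, 7.5 and 7.3 RPKM, lowest in the control.

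No member passed the limma test, which was fitted to log2 RPKM of all 4 libraries with the enhancer guides as a group of 2 and has 1 residual degree of freedom. After Benjamini-Hochberg adjustment 0 members and 0.0% of all genes passed 0.05 in each of the 3 contrasts, and the lowest adjusted p of a member was 0.205 for the enhancer guides against sgRNA-NT, 0.225 for sgRNA-FOXF1 against sgRNA-NT and 0.45 for sgRNA-FOXF1 against the enhancer guides. At an unadjusted p under 0.05, limma gave 7 members (17.9%, beside 24.3% of all genes) for the enhancer guides, namely SLC7A11, CHAC1, EPRS and NARS below the control and SHMT2, QARS and PHGDH above it. For sgRNA-FOXF1 it gave 7 members (17.9%, beside 21.4%), with DDIT3 in place of QARS, and against the enhancer guides 2 members (5.13%, beside 9.65%), CHAC1 and NARS.

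The limma result depended on genes with equal values in both enhancer-guide libraries, of which there were 251. A fit without them, chosen after seeing the data, gave an adjusted p under 0.05 for 7 members (beside 19.4% of 7345 genes) with the enhancer guides, for 8 members (beside 14.3%) with sgRNA-FOXF1 and for 1 member, CHAC1, between them (beside 4.63%). SLC7A11, CHAC1, EPRS, SLC7A5, SLC3A2 and PHGDH passed in both of the first contrasts of that fit. That fit leaves out genes for having a spread of 0, so these calls are given as an alternative only. SLC7A11, named under both fits, passed the filter only through its sgRNA-NT value. It could only appear lower in the targeted libraries, so its calls against sgRNA-NT in either fit are description and not support.

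Transcript length moved with the ratios. Over 7566 genes with a length, Spearman's rho between length and the log2 ratio was -0.50, -0.44 and -0.45, so long transcripts were lower in all targeted libraries, and over 38 members it was -0.22, -0.10 and -0.21. These correlations are across genes within single libraries, which share the control, and genes are not independent replicates. After a smooth trend in length over all genes was removed, SLC7A11, whose transcript of 9645 bases is long, had log2 ratios of -1.02, -1.76 and -2.26 in place of -1.55, -2.38 and -2.87. CHAC1, with 1520 bases, had -0.97, -0.98 and -1.97. EPRS, with 4862 bases, was left with -0.41, -0.62 and -0.64, so that the lower level in sgRNA-AP1-69 no longer passed 1.5-fold. The same held for IARS in sgRNA-AP1-69 and sgRNA-FOXF1 (-0.48 and -0.43) and, in sgRNA-FOXF1, for LARS (-0.41) and SLC7A5 (-0.54). In the other direction FARSB passed it in both enhancer-guide libraries (0.63 and 0.87) and DARS in sgRNA-AP1-71 (0.60). PSAT1 became lower by more than 1.5-fold in sgRNA-AP1-71 and sgRNA-FOXF1 (-0.68 and -0.64). DDIT3, with 903 bases, had -0.59, -0.70 and -0.95 and then passed it in each library, though only just in sgRNA-AP1-69. PHGDH had 0.77, 0.91 and 1.05. SLC7A1, with 7343 bases, had 0.51, 0.95 and 1.01, and so became higher by more than 1.5-fold in sgRNA-AP1-71 and sgRNA-FOXF1.

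Near the limit of 1.5-fold, the calls are fragile because values carry 1 decimal and no replicate. Those that just reached it were EPRS with sgRNA-AP1-69 (1.53-fold), DDIT3 with sgRNA-FOXF1 (1.56-fold) and MTHFD2 with sgRNA-AP1-71 (1.5-fold). IARS with sgRNA-AP1-69 and sgRNA-FOXF1 (1.57-fold), LARS with sgRNA-FOXF1 (1.58-fold) and SESN2 with sgRNA-AP1-71 (1.59-fold) were also close. Among those that just fell short were PSAT1 (1.49-fold), DARS (1.49-fold) and NARS (1.48-fold), all with sgRNA-AP1-71.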

How the data were processed

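RNA from 4 libraries of RASG12V-induced BJ cells was analysed, 1 per condition, with groups taken from the labels. The authors sequenced single reads of 65 bp on a HiSeq2500, used TopHat2 for alignment (hg19) and HTSeq-count for read counts of genes, and derived RPKM from GENCODE annotations of the genes. The deposited RPKM values are quantile-normalized, given to 1 decimal and floored at 1 RPKM. Quantile normalization gives the libraries the same distribution, so a change common to most genes cannot be seen. For neither tool is a version given in the sources used here. The authors also deposited 3 columns of log2 ratios to sgRNA-NT, which were not used. Read counts were not used here, so depth is unknown and no interval for counting error is given. The labels name the TruSeq RNA kit after Oligotex selection and Trizol, whereas the paper describes a stranded TruSeq kit and Trisure. Whether strand was kept is therefore open, and 10 members overlap an exon of another protein-coding gene.

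Log2 ratios to sgRNA-NT were computed from RPKM without a pseudocount for genes whose mean reached 2 RPKM, and differences of at least 1.5-fold were counted. limma 3.58.1 (R 4.3.3) was fitted to all 7596 genes with a trend of variance on mean, Benjamini-Hochberg adjustment and 1.4 prior degrees of freedom. A run on simulated data used values that were not rounded to 1 decimal. It therefore cannot show how the fit behaves with the tied genes of these data. Lone libraries were assumed to vary like the pair of enhancer guides, so p-values measure the spread between these 2 libraries. Transcript lengths and gene positions came from GENCODE v44 lifted to hg19, and the length trend was a cubic spline with 5 knots. Promoters were matched by symbol or synonym to RefSeq on GRCh38.p14, and 34 of 40 members matched. Every member was named, and of each further list up to 4 genes with the largest mean absolute ratio and a mean of at least 5 RPKM, except 1 gene that is not reported here. The members and lists were chosen with earlier results of these data known. Alternatives were a pseudocount of 1, no filter or a mean of at least 5 RPKM, median-centred or length-corrected ratios, a 2-fold limit, each guide alone, and limma without a trend or without tied genes. Python 3.11.15 with numpy 2.4.6, pandas 2.3.3, scipy 1.17.1 and matplotlib 3.10.9 was used.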

Additional observations from a re-analysis of the deposited data

Results flagged for a closer look

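For 3 members the ratio to sgRNA-NT had the same sign with both enhancer guides and the opposite sign with sgRNA-FOXF1. That is 3 of 39 members (7.69%), below the 986 of 7596 genes (13.0%) with the same pattern. FARSB was above the control with the enhancer guides and below it with sgRNA-FOXF1, a log2 difference of -0.47 between sgRNA-FOXF1 and the mean of the enhancer guides. ATF4 was below the control with the enhancer guides and above it with sgRNA-FOXF1, a log2 difference of 0.35. SLC1A5 had the same pattern as ATF4 with a log2 difference of 0.12. None of these differences passed the limma test of sgRNA-FOXF1 against the enhancer guides, with adjusted p-values of 0.45 for FARSB, 0.45 for ATF4 and 0.668 for SLC1A5, and none reached 1.5-fold.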

How the results depend on the processing

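Of 79 alternative values, 57 stayed within the limits set for them. For counts the limit was 1.5 times. For medians it was 0.028 for synthetases and 0.065 for other members, a standard error over genes of the log2 difference between the guides. It treats the genes of a list as independent replicates, which they are not. The limit for medians is therefore narrow, and the tally is description only. A pseudocount of 1 RPKM, no filter, and limma without a trend moved none of the values recomputed under them. At a 2-fold limit, 0 members were higher and 1 lower for sgRNA-AP1-69, 1 higher and 3 lower for sgRNA-AP1-71, and 3 lower for sgRNA-FOXF1. Centring on the median of all genes gave medians of -0.03, -0.04 and -0.14 for the synthetases and of -0.11 and -0.09 for the other members in the sgRNA-AP1-69 and sgRNA-AP1-71 libraries. After length correction 2 members each were higher in the sgRNA-AP1-69 and sgRNA-FOXF1 libraries, the medians of the synthetases were -0.04, 0.09 and -0.12, and that of the other members was -0.17 with sgRNA-AP1-71. At a minimum mean of 5 RPKM, the sgRNA-FOXF1 medians were -0.04 for the synthetases and 0.06 for the other members. The synthetase median turned sign under centring, which shifts all genes alike, for both enhancer guides and under length correction for sgRNA-AP1-69. With sgRNA-FOXF1 it was below 0 in each of these settings. The cause of the moves under length correction and the 5 RPKM minimum was not tested. Without each guide in turn the median over the other members for the enhancer guides ranged from -0.05 to -0.01, and that over the synthetases stayed at 0.04. Without genes equal in both guides, limma called 7, 8 and 1 members, as its construction leaves out genes with a spread of 0. No paired analysis was possible because each condition has 1 library. With 1 library per condition and values floored at 1 RPKM, differences between low genes such as SLC7A11 and CEBPG have no replicate error, and the level of SLC7A11 in sgRNA-FOXF1 is an upper limit.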

Other observations

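Gene groups next to the members were described in the same way. The mitochondrial synthetases, encoded by separate genes from the cytosolic ones, had medians of 0.33, 0.32 and 0.25 on the log2 scale over 15 of 17 genes, and TGATGNAA was in 1 of 14 of their promoters (7.14%). IARS2, the isoleucine enzyme of mitochondria, lay on the other side at 26.0, 16.8, 17.9 and 13.3 RPKM, and FARS2, the phenylalanine enzyme, was at 6.3, 8.8, 9.4 and 8.2 RPKM. Cytosolic IARS and mitochondrial IARS2 were thus both highest in sgRNA-NT.

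The ATF6 and XBP1 arm of the unfolded protein response, which raises chaperones and degradation factors of the endoplasmic reticulum, had medians of -0.19, -0.18 and 0.00 over 13 genes, with 2 at least 1.5-fold lower (15.4%, beside 9.93%, 14.7% and 13.2% of all genes) and 0 higher in each targeted library. The chaperone HSP90B1 was at 104.5, 55.1, 50.6 and 54.2 RPKM and SEL1L, an adaptor for degradation, at 8.9, 4.8, 4.7 and 3.5 RPKM, whereas XBP1 itself was at 31.0, 39.3, 40.1 and 35.2 RPKM. One-carbon genes outside the members had medians of 0.16, 0.25 and 0.33 over 6 of 11 genes. TYMS, which makes thymidylate, was at 20.6, 31.0, 32.2 and 34.4 RPKM, lowest in the control.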
